A study of Mus musculus with 6 samples.

Results

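The 10 genes described here encode the core of the transforming growth factor beta (TGF-beta) pathway: the ligands Tgfb1, Tgfb2 and Tgfb3, the receptors Tgfbr1 and Tgfbr2, the signal transducers Smad2, Smad3 and Smad4, and the feedback inhibitors Smad7 and Skil. They were taken by symbol from a table of 55471 genes, and all 10 had enough counts to be tested, among 13044 tested genes. RNA sequencing was done on 3 knockout libraries, whose genotype is labelled as Setd1a knock out and whose titles carry a numeric tag, and on 3 control libraries, labelled as wild type with the tag AAV2. All libraries came from a cultured mouse undifferentiated pleomorphic sarcoma line labelled as metastatic and grown in DMEM with fetal bovine serum. Setd1a encodes a methyltransferase for histone H3. The labels do not say what the tags stand for, whether the knockout line is 1 clone or a pool, or whether the replicates were separate cultures. Whatever the tags mark cannot be told apart from the genotype, and every p-value here rests on the spread between these 6 libraries alone, which may be technical.

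TGF-beta ligands are secreted in a latent form, held in the matrix by binding proteins and released by integrins and proteases. The active dimer joins the type II receptor Tgfbr2 to the type I receptor Tgfbr1, which phosphorylates Smad2 and Smad3, and these enter the nucleus with Smad4 to switch target genes on or off. Smad7 blocks the type I receptor and Skil represses Smad complexes on DNA, and both are themselves induced by the signal. In mesenchymal tumours the pathway is known for its control of matrix and invasion.

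Setd1a itself was read in every library, at 53.2, 68.7 and 56.3 CPM (counts scaled to a common library size) in the knockout libraries against 71.0, 75.3 and 73.5 CPM in the control libraries. The groups did not overlap, but the transcript remained, and 52.3% of its exonic bases are shared with other genes. Its change of -0.30 ± 0.12 on the log2 scale (SE) had an adjusted p of 0.426 (edgeR quasi-likelihood, no pairing). With libraries paired by replicate number the change was -0.31 ± 0.09 (SE, adjusted p = 0.0913, edgeR quasi-likelihood). Library totals lay between 17749533 and 18272622 counts. The mesenchymal markers Vim, Col1a2, Col3a1, Fn1 and Sparc were read in every library, and 10 such markers summed to 8813, 7641 and 7593 CPM in the knockout libraries against 9041, 8859 and 9302 CPM in the control libraries (p = 0.1 by exact permutation, two-sided, as low as 3 against 3 libraries can go). No marker of that list was at 0. Vim made up most of the sum, at 5824, 5289 and 5175 CPM in the knockout libraries against 5642, 6233 and 6564 CPM in the control libraries. Taken singly, the groups overlapped for all 10 markers. The 10 macrophage and leukocyte markers summed to between 19.9 and 28.3 CPM in the knockout libraries and between 20.3 and 22.6 CPM in the control libraries. Most of that came from Cd14 (11.5 to 14.4 CPM over all 6) and Cd68 (6.88 to 13.6 CPM), while Adgre1, C1qa and Cd3e were at 0 in all 6 and the pan-leukocyte gene Ptprc had at most 5 counts. Mitochondrial genes took 3.48% to 3.91% of the counts in the knockout libraries and 2.50% to 3.03% in the control libraries, so the groups did not overlap. A list of 12 interferon response genes summed to 234.9, 878.6 and 781.5 CPM in knockout replicates 1, 2 and 3 and to 321.2, 251.8 and 144.0 CPM in control replicates 1, 2 and 3, so knockout replicate 1 stood apart from the other two knockouts on that list.

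Of the 3 ligand genes, Tgfb1 was higher in every knockout library than in any control library, Tgfb3 was lower in every knockout library, and Tgfb2 was scarce in both groups. Tgfb1 (ENSMUSG00000002603, chromosome 7, positions 25687002 to 25705077 of GRCm38, plus strand), which encodes the most widely expressed of the ligands, stood at 28.9, 34.6 and 40.2 CPM in knockout replicates 1, 2 and 3, against 21.4, 17.98 and 27.9 CPM in control replicates 1, 2 and 3. The lowest knockout library and the highest control library lay close together, and the libraries within each group spread by several CPM. In bulk RNA, a difference in the share of cells that express a gene and one in the RNA per cell cannot be told apart. The means were 34.5 ± 5.67 CPM in the knockout and 22.4 ± 5.04 CPM in the control libraries (SD, n = 3 each).

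The 2 ways of testing gave different calls for Tgfb1. With the replicate number as a block, a paired test that the correlation of same-numbered libraries led to, Tgfb1 rose 1.55-fold, a log2 change of 0.63 ± 0.12 (SE, adjusted p = 0.0338, edgeR quasi-likelihood). Without pairing edgeR gave 0.62 ± 0.18 on the log2 scale (SE, adjusted p = 0.308). Within the pairs, the log2 ratio of knockout to control was 0.43, 0.94 and 0.52 in replicates 1, 2 and 3, so all 3 pairs lay above 0. Of all genes tested, 19.9% were higher in the knockout library of all 3 pairs. Without pair 1, which holds the knockout library that stood apart on the interferon list, the log2 change was 0.73 (adjusted p = 6.23e-05). That paired edgeR fit rests on 2 pairs and called 5.45% of all genes, against 2.28% with all pairs in. The paired call was lost without pair 2 (adjusted p = 0.156) and without pair 3 (adjusted p = 0.0747), and without pair 3 no gene of the whole table was called.

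Tgfb1 was the 1 member of 10 called by the paired test, and it was the 1 member whose knockout libraries all lay above the controls. The paired test called 1.43% of all genes higher and 0.851% lower in the knockout, and the groups did not overlap for 15.3% of all genes, 7.49% with all knockout libraries above the controls. The test without pairing called 0 of the 10 members and 0.00% of all genes. At an unadjusted p under 0.05 it had 1 member, Tgfb1, beside 10.0% of all genes, 5.50% higher and 4.51% lower in the knockout. DESeq2 called 0 members beside 0.879% of all genes, and limma-voom 0 members beside 0.00%. A count of 0 or 1 among 10 genes is near these shares. The summed levels of 8 endothelial markers also stood higher in the knockout, at 4.85, 2.997 and 3.57 CPM against 1.44, 2.68 and 2.86 CPM in the controls, and the groups did not overlap. Cdh5, a defining endothelial gene, had 42, 33 and 33 counts in the knockout libraries against 15, 31 and 29 counts in the control libraries. The mean of Cdh5, Pecam1, Kdr, Tie1 and Vwf was higher in the knockout and that of Tek and Emcn lower, each on few reads, while Cldn5 was at 0 in all 6. The part of the endothelial markers, of the interferon response genes and of the mitochondrial share in the Tgfb1 difference was not tested.

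**Figure D1:**
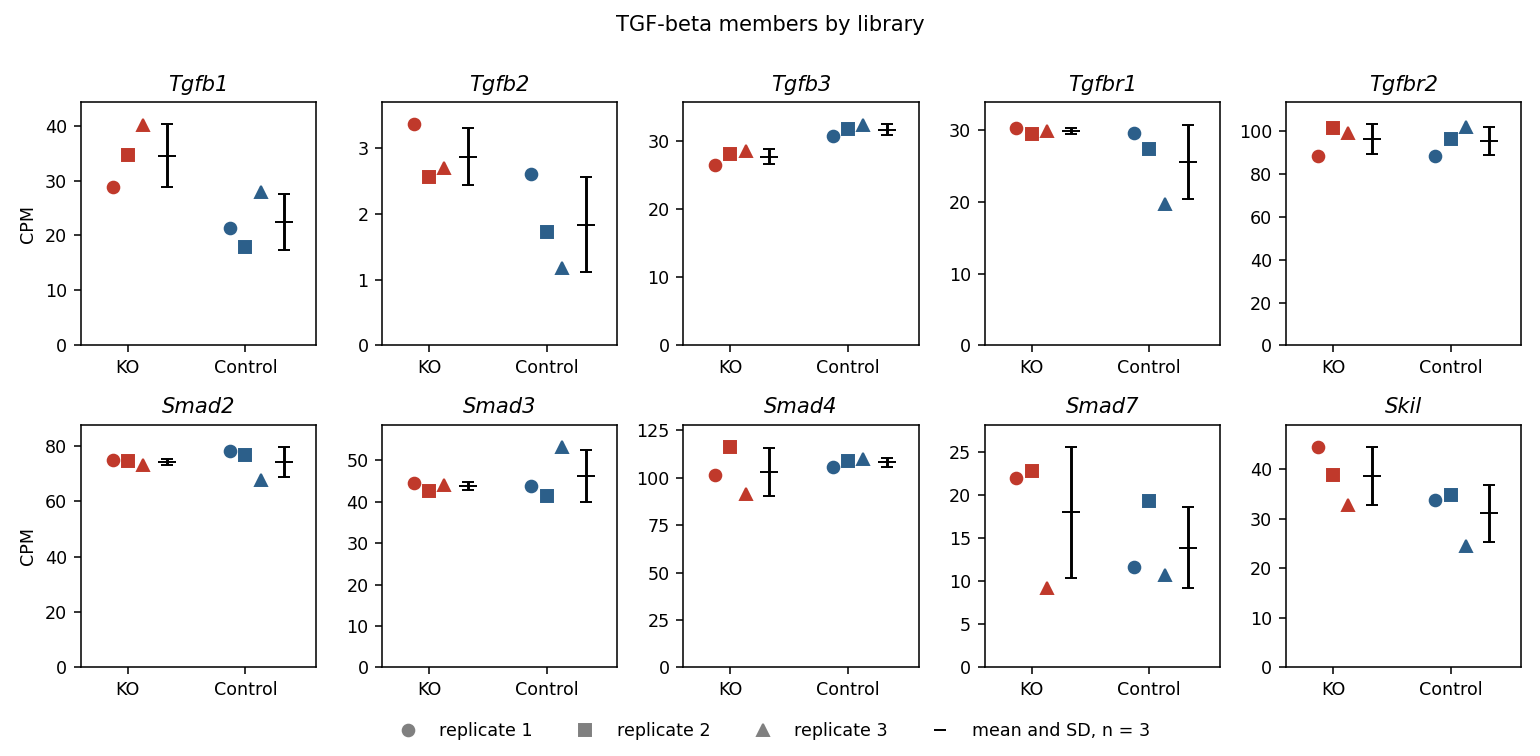
CPM of each of the 10 members in the 3 knockout (KO) and 3 control libraries, each panel with its own axis from 0; symbols give the replicate number and bars the mean and SD (n = 3). Tgfb1 lay between 28.9 and 40.2 CPM in the knockout libraries and between 17.98 and 27.9 CPM in the controls, while Tgfbr2, Smad2, Smad3 and Smad4 overlapped between the groups.

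Tgfb3 (ENSMUSG00000021253, chromosome 12, 86056745 to 86079041, minus strand), the ligand best known from palate development, lay lower in the knockout. It stood at 26.4, 28.0 and 28.5 CPM in the knockout libraries against 30.8, 31.8 and 32.3 CPM in the control libraries. The groups did not overlap and the libraries within each group lay close together, yet the difference was small. On the log2 scale it was -0.19 ± 0.09 (SE, adjusted p = 0.293) in the paired edgeR test and -0.19 ± 0.11 (SE, adjusted p = 0.619) without pairing, so Tgfb3 was not called. Of all genes tested, 7.77% had knockout libraries entirely below the controls. Of the exonic bases of Tgfb3, 12.4% are shared with genes on the opposite strand, and without a stated strand setting their reads cannot be told apart.

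Tgfb2 (ENSMUSG00000039239, chromosome 1, 186622792 to 186705989, minus strand), a ligand that binds its receptors well only with the co-receptor Tgfbr3, held few reads. It had 61, 46 and 49 counts in the knockout libraries against 47, 31 and 21 counts in the control libraries. Expressed as CPM these were 3.36, 2.55 and 2.69 in the knockout and 2.60, 1.73 and 1.18 in the control libraries. Knockout replicate 2 lay just below control replicate 1, so the groups overlapped. The paired log2 change of 0.67 ± 0.23 (SE) was the largest of the members in size with all pairs in, but it missed the threshold with an adjusted p of 0.149 (0.519 without pairing), and counting error is wide at this level. Without pair 3 it was 0.45, below Tgfb1 at 0.68 and Smad7 at 0.55 in that fit.

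The ligand genes also differed in the sequence before their starts, which is shown because Tgfb1 was the called member and Tgfb2 the member with the largest change. The 250 bases before the start were taken from the RefSeq promoter table of GRCm38.p6 for 5 members, Tgfb1, Tgfb2, Tgfbr1, Tgfbr2 and Smad3. Smad2, Smad4 and Smad7 were not searched and are not reported here, and Tgfb3 and Skil had no entry used here. Capitals mark CAGAC or its reverse complement GTCTG, the letters of the Smad box; Tgfb1 is at chr7:25686752-25687001 on the plus strand and Tgfb2 at chr1:186705990-186706239 on the minus strand.
Tgfb1: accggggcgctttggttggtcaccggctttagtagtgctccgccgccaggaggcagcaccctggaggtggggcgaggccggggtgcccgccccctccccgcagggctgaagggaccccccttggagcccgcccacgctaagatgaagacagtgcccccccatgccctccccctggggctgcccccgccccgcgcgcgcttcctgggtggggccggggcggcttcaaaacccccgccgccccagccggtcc
Tgfb2: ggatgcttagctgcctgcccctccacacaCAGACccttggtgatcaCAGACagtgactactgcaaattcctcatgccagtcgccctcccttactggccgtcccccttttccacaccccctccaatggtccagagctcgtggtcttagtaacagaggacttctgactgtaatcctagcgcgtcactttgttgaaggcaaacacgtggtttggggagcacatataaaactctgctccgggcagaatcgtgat

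The Tgfb1 window was 75.2% G and C with 21 CpG dinucleotides, against 53.6% and 8 in the Tgfb2 window and medians of 52.4% and 6 over 32851 windows of the same length. The CAGAC letters, searched on both strands, were found 0 times in the Tgfb1 window, 2 times in Tgfb2, 1 time in Tgfbr2, and 0 times in Tgfbr1 and Smad3. Of all windows, 42.2% held them at least 1 time. The GC box GGGCGG, also searched on both strands, was found 5 times in Tgfb1, 2 times each in Tgfbr1 and Smad3, and 0 times in Tgfb2 and Tgfbr2, with 32.7% of all windows holding it. The longer Smad element GTCTAGAC was in none of the 5 windows and in 0.167% of all, and the AP-1 letters TGANTCA were likewise in none of the 5 and in 6.75% of all.

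Divided by exon length, Tgfb1 took a larger and Tgfb3 a smaller part of the ligand transcripts in every knockout library than in any control library. Tgfb1 made up 40.5%, 44.0% and 47.3% of the summed ligand level in the knockout libraries, against 30.8%, 26.9% and 36.2% in the control libraries. Tgfb3 made up 55.4%, 53.2% and 50.0% in the knockout libraries, against 65.9%, 70.9% and 62.5% in the control libraries. Neither share overlapped between the groups, and a share within a library does not depend on the scaling between libraries. The 3 shares of a library add up to the whole, and Tgfb2 took at most 4.11% of it. The Tgfb1 and Tgfb3 shares thus nearly mirror each other and are not separate results. Knockout minus control, the mean Tgfb1 share differed by 12.6 percentage points and the mean Tgfb3 share by -13.6 points. By exact two-sided permutation, p was 0.1 for each, the smallest value that 3 against 3 libraries can give, and 0.15 after Benjamini-Hochberg adjustment over the 3 shares. The Tgfb2 share averaged 3.23% ± 0.76 in the knockout and 2.28% ± 0.96 in the control libraries (SD, n = 3 each; exact two-sided permutation p = 0.3). The order of the main ligands depends on the length used. With the longest transcript in place of all exons, Tgfb1 averaged 60.3% in the knockout and 46.9% in the control libraries, and Tgfb3 37.1% in the knockout and 51.1% in the control libraries, so Tgfb1 led in the knockout.

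**Figure D2:**
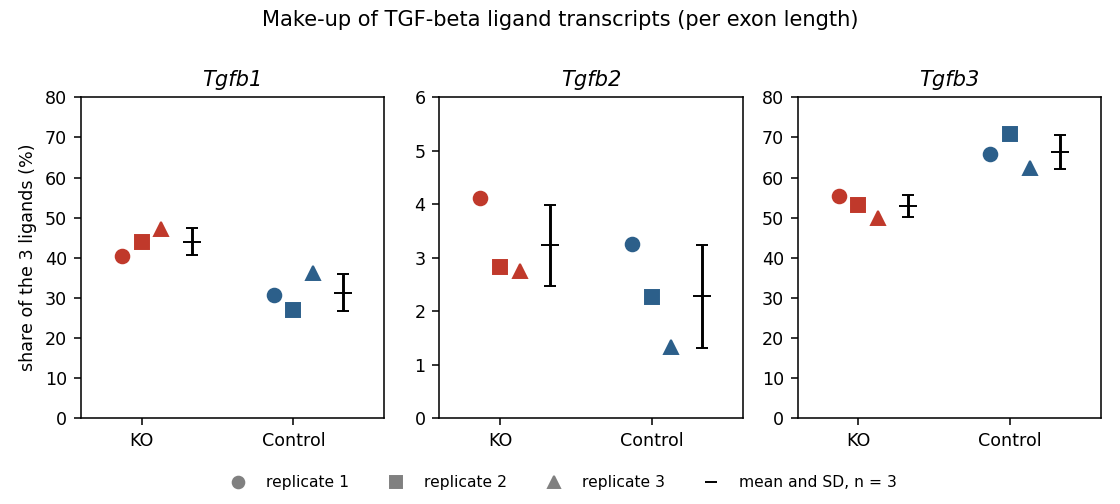
Share of each ligand in the summed level of Tgfb1, Tgfb2 and Tgfb3, each divided by its exon length, in the knockout (KO) and control libraries; symbols give the replicate number, bars the mean and SD (n = 3), and the Tgfb2 axis has its own range. The Tgfb1 share was at least 40.5% in the knockout libraries and at most 36.2% in the controls, and the Tgfb3 share at most 55.4% against at least 62.5%.

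The receptors showed no difference that passed a test. Tgfbr2 (ENSMUSG00000032440, chromosome 9, 116084293 to 116175360, minus strand), the type II receptor that binds ligand first, stood at 88.3, 101.4 and 99.0 CPM in the knockout libraries against 88.5, 96.3 and 101.8 CPM in the control libraries. Both groups ran over the same range, and the log2 change was 0.01 ± 0.07 (SE) in the paired test (adjusted p = 0.960). Tgfbr1 (ENSMUSG00000007613, chromosome 4, 47353222 to 47414931, plus strand), the type I receptor kinase, stood at 30.3, 29.5 and 29.9 CPM in the knockout libraries against 29.7, 27.4 and 19.8 CPM in the control libraries. Control replicate 3 alone was low, and the log2 ratio was 0.03 and 0.10 in pairs 1 and 2 and 0.59 in pair 3. The paired log2 change was 0.24 ± 0.12 (SE, adjusted p = 0.332).

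No Smad that carries the signal passed a test, and the groups overlapped for all 3. Smad2 and Smad3 are the receptor-activated Smads, and Smad4 is the common partner shared with the BMP branch. Smad2 (ENSMUSG00000024563, chromosome 18) stood at 74.8, 74.5 and 72.9 CPM in the knockout libraries against 78.0, 76.5 and 67.8 CPM in the control libraries, a paired log2 change of 0.00 ± 0.08 (SE, adjusted p = 0.992). Smad3 (ENSMUSG00000032402, chromosome 9, 63646767 to 63757994, minus strand) stood at 44.4, 42.6 and 44.1 CPM in the knockout libraries against 43.9, 41.3 and 53.3 CPM in the control libraries, with control replicate 3 above the others. Smad4 (ENSMUSG00000024515, chromosome 18) stood at 101.2, 116.4 and 91.6 CPM in the knockout libraries against 105.5, 108.9 and 110.0 CPM in the control libraries. The knockout libraries of Smad4 lay on both sides of the controls. The paired log2 changes were -0.07 ± 0.10 for Smad3 and -0.08 ± 0.08 for Smad4 (SE; adjusted p = 0.759 and 0.696). The signs of the Smad2, Smad3, Smad4 and Tgfbr2 changes are not fixed by these data, since each turned under at least 1 alternative.

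Relative to their means, the feedback inhibitors varied more between libraries than the Smads that carry the signal. The SD was 42.5% of the mean for Smad7 and 15.1% for Skil in the knockout libraries, and 34.0% and 18.5% in the control libraries. For Smad2, Smad3 and Smad4 it was at most 12.2% in the knockout and 13.7% in the control libraries. Such a spread was not limited to the inhibitors. For Tgfb1 it was 16.4% in the knockout and 22.5% in the control libraries, above Skil in both groups. Tgfb2 (39.1%) and Tgfbr1 (20.3%) were above Skil in the control libraries and below it in the knockout libraries. Tgfb3 and Tgfbr2 were below Skil in both groups. Smad7 (ENSMUSG00000025880, chromosome 18) stood at 22.0, 22.8 and 9.18 CPM in the knockout libraries against 11.7, 19.4 and 10.7 CPM in the control libraries. Knockout replicates 1 and 2 and control replicate 2 were high, and knockout replicate 3 was the lowest of all 6, so the groups overlapped over most of the range. The log2 ratio was 0.90, 0.23 and -0.22 in pairs 1, 2 and 3, and the paired log2 change was 0.33 ± 0.18 (SE, adjusted p = 0.367). Without pair 1 it was 0.04. Skil (ENSMUSG00000027660, chromosome 3, 31095058 to 31122577, plus strand), which encodes the corepressor SnoN, stood at 44.5, 39.0 and 32.8 CPM in the knockout libraries against 33.9, 34.9 and 24.5 CPM in the control libraries. The groups overlapped through knockout replicate 3, but all 3 pairs lay above 0, at log2 ratios of 0.39, 0.16 and 0.42. Its paired log2 change of 0.32 ± 0.10 (SE) missed the threshold with an adjusted p of 0.111 (0.564 without pairing).

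**Figure D3:**
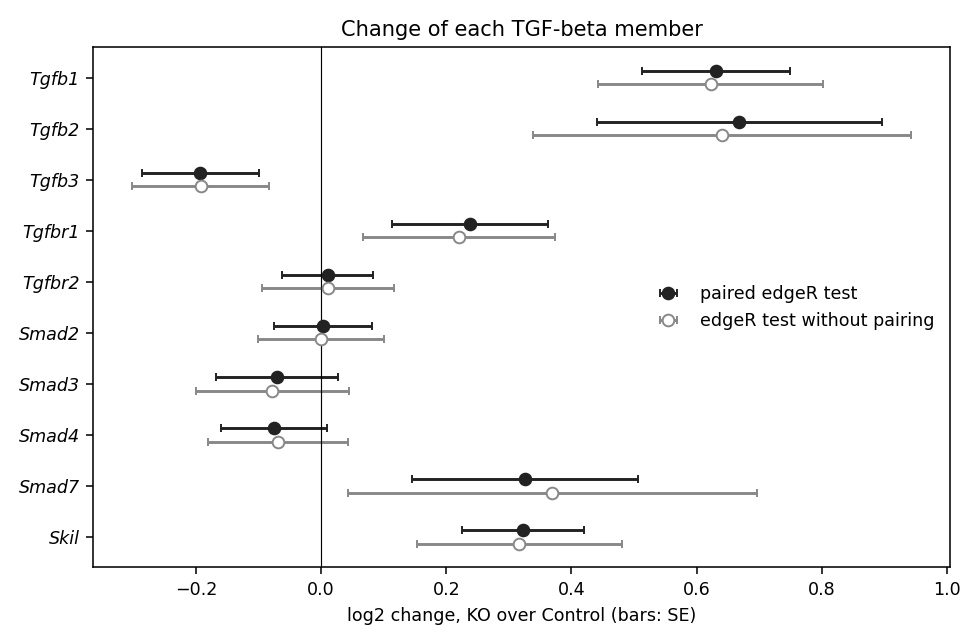
Log2 change of each member, knockout (KO) over control, with its SE, in the paired edgeR test (filled) and in the edgeR test without pairing (open), over 3 libraries per group. Tgfb1 and Tgfb2 had the largest changes with all pairs in, at 0.63 and 0.67 in the paired test, and Tgfb3 the lowest at -0.19.

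Over the 10 members, 6 had a log2 change above 0 and 4 below 0 without pairing, with a median of 0.12 beside 0.00 over all genes tested. Tgfb1, Tgfb2, Tgfbr1 and Skil were higher in the knockout library of all 3 pairs and Tgfb3 was lower in all 3, where 19.9% of all genes were higher and 21.6% lower in all 3 pairs.

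**Figure D4:**
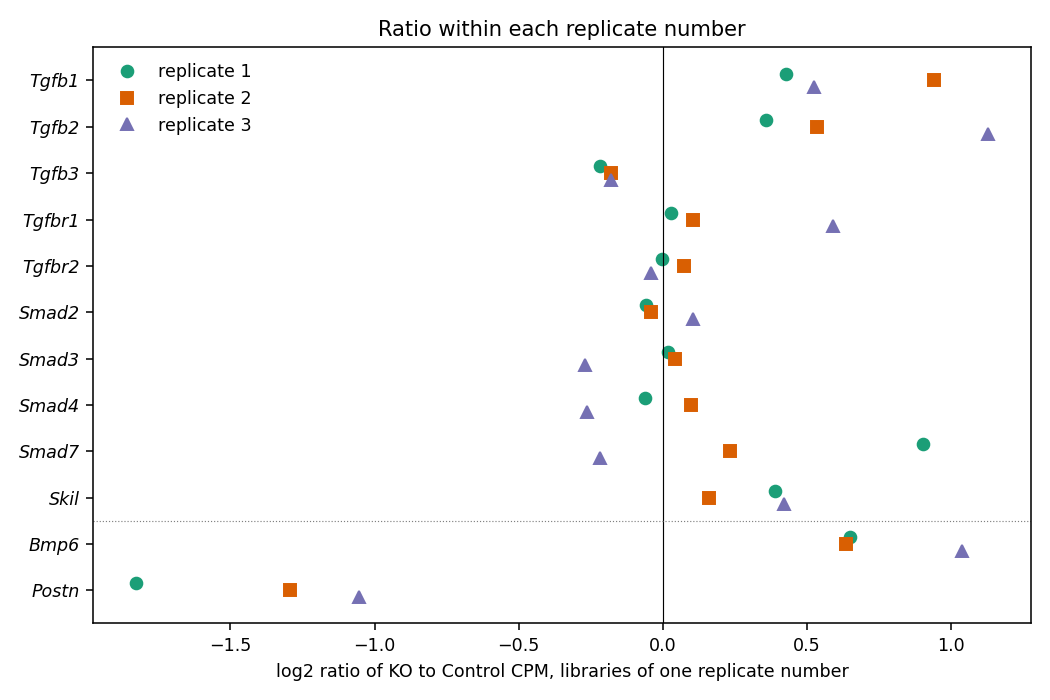
Log2 ratio of knockout (KO) to control CPM within each replicate number for the 10 members and, below the dotted line, for Bmp6 and Postn, which the paired test also called. Tgfb1 lay at 0.43, 0.94 and 0.52 and Tgfb3 at -0.22, -0.18 and -0.18 in replicates 1, 2 and 3, while Smad7 lay at 0.90, 0.23 and -0.22.

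Per kilobase of exon, Smad4 was the most abundant member and Tgfb2 the least. Averaged over all 6 libraries, the levels were 28.5 CPM per kilobase for Smad4, 11.7 for Tgfbr2, 8.76 for Tgfb3, 8.44 for Smad2, 8.11 for Smad3, 5.65 for Tgfb1, 4.25 for Tgfbr1, 3.602 for Skil, 3.53 for Smad7 and 0.406 for Tgfb2. With these lengths, the ranges of Smad4, Tgfbr2 and Tgfb2 did not meet those of their neighbours in this order. Every other pair of neighbours, from Tgfb3 down to Smad7, overlapped in its range over the 6 libraries. The order depends on the length used: per kilobase of the longest transcript, Tgfb1 came to 11.1 CPM, next below Tgfbr2 at 11.9 CPM and overlapping with it, and Tgfb3 moved below Smad3. Smad4 at 31.2 CPM and Tgfb2 at 0.460 CPM per kilobase stayed first and last and met no neighbour there either. Per kilobase of all exons, Tgfb1 averaged 6.85 ± 1.13 CPM per kilobase in the knockout and 4.45 ± 1.0 in the control libraries, and Tgfb3 8.18 ± 0.33 in the knockout and 9.35 ± 0.24 in the control libraries (SD, n = 3 each).

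Among 24 genes known to respond to TGF-beta, Postn fell in the paired test and the other 23 were not called. Postn (ENSMUSG00000027750, chromosome 3, 54361109 to 54391037, plus strand), which encodes the matrix protein periostin, had 12, 10 and 2 counts in the knockout libraries against 47, 27 and 6 counts in the control libraries. Its groups overlapped, since control replicate 3 was low too, and its level was near the limit of detection. The paired log2 change was -1.71 ± 0.33 (SE, adjusted p = 0.0363 with pairing and 0.441 without). The Postn call was lost without pair 2 (adjusted p = 0.0538) and without pair 3 (adjusted p = 0.0668), and after pair 1 was left out its counts were too low to be tested.

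Of the 24 response genes, 12 had a log2 change above 0 and 12 below, with a median of 0.03 without pairing beside 0.00 over all genes. The list was not divided by the direction in which TGF-beta moves each gene, so this balance does not measure the response. In the paired test 0 were called higher and 1 lower, beside 2.28% of all genes called in either direction. Without pairing edgeR called 0, and its unadjusted p was under 0.05 for 1 higher and 1 lower, while DESeq2 and limma-voom called 0. Loxl2, a lysyl oxidase-like enzyme of matrix crosslinking, averaged 14.9 ± 3.85 CPM in the knockout and 10.98 ± 1.003 CPM in the control libraries (SD, n = 3 each), with an adjusted p of 0.121 in the paired edgeR test. Id3, an inhibitor of helix-loop-helix transcription factors, stood at 155.4, 151.4 and 110.9 CPM in the knockout libraries against 160.8, 167.6 and 181.6 CPM in the control libraries. Its groups did not overlap, with knockout replicate 3 well below the rest, and its adjusted p was 0.197 in the paired edgeR test. Within the list, the groups did not overlap for 1 gene higher and 2 lower in the knockout, beside 7.49% and 7.77% of all genes. The gene higher was Loxl2, and Id3 was 1 of those lower. The contractile gene Acta2 averaged 55.0 ± 26.1 CPM in the knockout and 52.3 ± 17.3 CPM in the control libraries, and Fn1, which encodes fibronectin, 1070 ± 293.5 CPM in the knockout and 1128 ± 299.2 CPM in the control libraries (SD, n = 3 each). Acta2 and Fn1 were chosen after their values were seen, as 2 much used markers of the response. Ccn2 and Tgfbi, chosen in the same way, had paired edgeR log2 changes of 0.57 ± 0.16 and 0.38 ± 0.15 (SE, adjusted p = 0.0881 and 0.205). Ccn2 stood at 120.4, 116.2 and 57.3 CPM in the knockout libraries against 55.4, 108.9 and 40.6 CPM in the control libraries. Of its exonic bases, 23.2% are shared with a gene on the opposite strand, and the strand setting is not stated. Over the list, 7 genes were higher and 5 lower in the knockout library of all 3 pairs, beside 19.9% and 21.6% of all genes. Without pair 1 the paired test called 4 of the list, Tgfbi, Cdkn1a and Loxl2 higher and Id3 lower, beside 5.45% of all genes in that fit. Without pair 2 it called 1, Ccn2, which was higher, beside 1.47% of all genes.

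**Figure D5:**
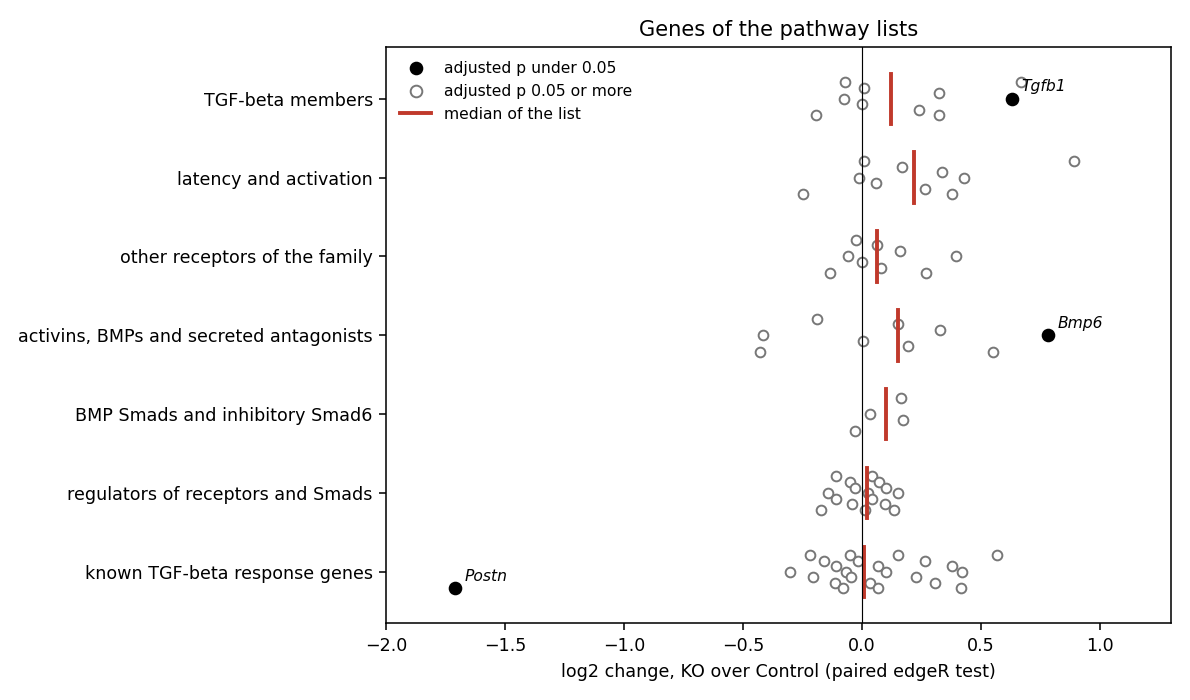
Log2 change, knockout (KO) over control, in the paired edgeR test for every tested gene of the members and of the 6 other pathway lists; filled points passed an adjusted p of 0.05 and red bars are the list medians. The called genes were Tgfb1 and Bmp6 on the higher side and Postn on the lower side, and the medians of the lists lay between 0.01 and 0.22.

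Genes that hold and release latent ligand were not called. Of 11 written, 10 were tested, 8 with a log2 change above 0 and 2 below, at a median of 0.20 without pairing, and 0 passed the paired or the unpaired edgeR test, beside 2.28% and 0.00% of all genes. At an unadjusted p under 0.05 there were 0, beside 10.0% of all genes. Ltbp1, a latent TGF-beta binding protein, stood at 281.6, 265.3 and 209.1 CPM in the knockout libraries against 306.9, 322.3 and 263.8 CPM in the control libraries. It was lower in the knockout library of every pair, with an adjusted p of 0.113 in the paired edgeR test. Nrros, a membrane protein that tethers latent TGF-beta, was under 1 CPM in all libraries, and the integrin subunit gene Itgav averaged 219.8 ± 32.1 CPM in the knockout and 195.3 ± 28.4 CPM in the control libraries (SD, n = 3 each; adjusted p = 0.301 in the paired edgeR test).

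Of 11 other receptors of the family, 9 were tested and 0 were called in either edgeR test, with 1 at an unadjusted p under 0.05 without pairing. Over all genes these shares were 2.28% with pairing, 0.00% without and 10.0% unadjusted, so 1 of 9 is near the share of all genes. That gene was Eng, which encodes the co-receptor endoglin, at 11.2, 15.1 and 14.2 CPM in the knockout libraries against 9.07, 10.4 and 11.1 CPM in the control libraries. Its groups did not overlap, by a narrow margin, and its adjusted p was 0.103 in the paired edgeR test. Endoglin is also known as an endothelial gene, and the summed endothelial markers stood higher in the knockout, as given above; their part in the Eng difference was not tested. The activin receptor gene Acvr2a averaged 13.9 ± 0.62 CPM in the knockout and 11.6 ± 1.303 CPM in the control libraries, and the BMP receptor gene Bmpr2 68.2 ± 10.1 CPM in the knockout and 61.1 ± 9.52 CPM in the control libraries (SD, n = 3 each; adjusted p = 0.236 and 0.327 in the paired edgeR test). The groups did not overlap for 2 genes higher in the knockout, Eng and Acvr2a, and for 0 lower. Over all genes these shares were 7.49% and 7.77%.

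Among the ligands of the neighbouring branches and their secreted antagonists, Bmp6 rose in the paired test. Of 16 written, 9 were tested, with 6 above 0 and 3 below, a median of 0.13 without pairing, and 1 called in the paired test, beside 2.28% of all genes. In edgeR without pairing, 1 higher and 1 lower had an unadjusted p under 0.05, beside 5.50% and 4.51% of all genes. The groups did not overlap for 2 genes higher and 1 lower in the knockout, beside 7.49% and 7.77% of all genes. Bmp6 (ENSMUSG00000039004, chromosome 13, 38345107 to 38500302, plus strand), a bone morphogenetic protein, stood at 9.69, 9.77 and 11.3 CPM in the knockout libraries against 6.14, 6.25 and 5.44 CPM in the control libraries. The groups stood well apart and the libraries within each were close. Its log2 change was 0.78 ± 0.14 (SE, adjusted p = 0.0321 with pairing and 0.180 without), DESeq2 without pairing gave an adjusted p of 0.0254, and without pair 3 the paired test gave 0.0930. Fst, which encodes the activin antagonist follistatin, stood at 82.8, 75.8 and 86.4 CPM in the knockout libraries against 131.4, 99.4 and 98.2 CPM in the control libraries. Its groups did not overlap, but the adjusted p of 0.0573 in the paired edgeR test missed the threshold. Fstl3, a related antagonist, averaged 10.7 ± 1.51 CPM in the knockout and 8.47 ± 0.50 CPM in the control libraries (SD, n = 3 each; adjusted p = 0.189 in the paired edgeR test). Of the exonic bases of Fstl3, 47.3% are shared with a gene on the opposite strand, and the strand setting is not stated.

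The BMP Smads and the regulators of receptors and Smads gave no calls. All 4 genes of the first list were tested, and Smad9, Smad6 and Smad5 had paired edgeR log2 changes of 0.17 ± 0.20, 0.17 ± 0.20 and 0.03 ± 0.07 (SE; adjusted p = 0.712, 0.717 and 0.854). Smad5, a BMP-activated Smad, stood at 86.7 ± 2.67 CPM in the knockout and 84.7 ± 4.54 CPM in the control libraries (SD, n = 3 each). All 16 regulators were tested, 8 above 0 and 8 below, at a median of 0.01, with 0 at an unadjusted p under 0.05 in edgeR without pairing. The ubiquitin ligase gene Nedd4l averaged 76.0 ± 5.84 CPM in the knockout and 68.3 ± 2.74 CPM in the control libraries, the corepressor gene Tgif1 84.6 ± 5.01 CPM in the knockout and 93.8 ± 11.8 CPM in the control libraries (SD, n = 3 each). The phosphatase gene Ppm1a averaged 105.0 ± 4.73 CPM in the knockout and 113.2 ± 2.39 CPM in the control libraries (SD, n = 3 each). Their adjusted p-values in the paired edgeR test were 0.363, 0.485 and 0.456. DESeq2 and limma-voom called 0 in both lists, beside 0.879% and 0.00% of all genes, and the paired test 0 beside 2.28%.

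The genes most like each of the 3 members with the largest changes were found from Pearson's r of log2 CPM over the 6 libraries, among protein-coding genes with a mean of at least 5 CPM. With 6 points, such values describe these libraries only. For Tgfb1 they were Olfm1 (r = 0.998), Cerk (r = 0.989) and Pim1 (r = 0.987), and 105 of 9506 genes had r above 0.9. Olfm1 stood at 19.2, 20.7 and 22.4 CPM in the knockout libraries against 17.3, 16.1 and 19.2 CPM in the control libraries. For Tgfb2 they were Dcn (r = 0.992), Ythdc1 (r = 0.980) and Edem3 (r = 0.976). Dcn, which encodes the small proteoglycan decorin, stood at 12.7, 8.60 and 9.02 CPM in the knockout libraries against 8.80, 6.25 and 4.09 CPM in the control libraries. For Smad7 they were Rest (r = 0.995), Abl2 (r = 0.995) and Fam118b (r = 0.994), and 445 of 9506 genes had r above 0.9. Rest, a repressor of neuronal genes, stood at 38.3, 38.7 and 21.9 CPM in the knockout libraries against 27.1, 36.3 and 25.0 CPM in the control libraries, with the same low knockout replicate 3 as Smad7.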

How the data were processed

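The authors deposited raw counts, whole reads per Ensembl gene, for 6 libraries. Per the submitters' processing notes, the tools were STAR, featureCounts and DESeq and the build mm10. Tool versions, annotation release, strand setting and the treatment of multi-mapping reads: not given in the sources used here. Symbols, positions and exon lengths came from GENCODE M21 (GRCm38), which held 55230 of the 55471 identifiers. Counts were scaled by TMM, filtered by edgeR's filter on low counts (at most 0.127% of a library's counts removed) and tested in R 4.3.3 with edgeR 4.0.16, two-sided quasi-likelihood test, Benjamini-Hochberg adjustment over 13044 genes, threshold 0.05. Logged CPM used a prior count of 2, and pair ratios added 0.1 CPM to both libraries.

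The main test had no pairing; a fit blocked by replicate number (the paired test) was its alternative. The numbers were taken to pair the libraries because deviations from the group means correlated at 0.15, 0.46 and 0.38 for the same number, each above the limit of 0.1, and between -0.45 and 0.053 for other numbers. This pairing comes from the data, since nothing in the labels explains the numbers. Deviations within a group cancel out, so low values for other numbers partly follow from the same-number values and are not separate evidence. Libraries within a group differed beyond sampling noise (chi-square per degree of freedom between 21.6 and 40.0). The test scripts were tested on simulated data. Alternatives used DESeq2 1.42.0, limma-voom (limma 3.58.1), other scalings and filters, and libraries or pairs left out.

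The members and lists were chosen with earlier results of these data known. Of the response list, 1 gene is not reported here, and the list's counts and median leave it out. Named genes are the members, Setd1a, and from each pathway list the genes called in either edgeR test and the 3 with the smallest p without pairing; genes of like pattern were the 3 with the highest r for each of the 3 members of largest change.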

Additional observations from a re-analysis of the deposited data

How the results depend on the processing

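The log2 changes of Tgfb1, Tgfb2, Tgfb3, Tgfbr1, Smad7, Skil and Setd1a kept their sign under every alternative that could be run for them. Tgfb2 was under the 5 CPM minimum and has no value there. The count of genes called without pairing was 0 higher and 0 lower. It was 187 higher and 111 lower with the replicate block, 62 and 12 with no low-count filter, and 82 and 39 with DESeq2. Over libraries or pairs left out it ran from 0 to 507 higher, and from 0 to 207 lower. The highest counts came without pair 1, 140 and 54 came without pair 2, and 0 and 0 without pair 3. Without knockout replicate 1 and without pairing, 30 were higher and 1 lower. Alternatives chosen after seeing the data combined the block with a 5 CPM minimum (124 higher and 83 lower), RLE scaling (193 and 124) and upper-quartile scaling (173 and 95). With the block alone or with these 3 additions, 1 member was called, Tgfb1, at log2 changes of 0.63 with the block, 0.64 with the minimum, 0.63 with RLE and 0.63 with upper-quartile scaling. Over libraries or pairs left out, Tgfb1 ran from 0.49 to 0.81 (0.73 without pair 1 with the block, where it was called) and members called from 0 to 1. The activin and BMP list had 1 call with the block, with DESeq2 and with each of the 3 additions, and 0 to 1 with libraries left out. The response list had 1 call with the block, 1 with RLE or upper-quartile scaling added, and 0 to 4 with libraries or pairs left out.

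The sign turned for the following changes, most of them near 0; Smad9 and Smad6 were at 0.22 and 0.16 with all libraries in. Tgfbr2 was -0.0048 with no filter and from -0.0432 to 0.0775 with libraries left out (-0.0062 with the block and without pair 2). Smad2, at -0.0002, was 0.0022 with the block, 0.0029 with upper-quartile scaling, 0.0078 with the minimum and 0.0024 with limma-voom. With the block it was 0.0104 with the minimum, 0.0007 with RLE and 0.0047 with upper-quartile scaling, and with libraries left out it ran from -0.0614 to 0.0387 (0.0366 without control replicate 1, and with the block 0.0329 without pair 1). With libraries left out, Smad3 ran from -0.143 to 0.0368, Smad4 from -0.156 to 0.0086 (with the block and without pair 3, 0.0202 and 0.0075), Smad9 from -0.170 to 0.537 (-0.167 without knockout replicate 1), Smad6 from -0.143 to 0.423 and Smad5 from -0.0029 to 0.083. The ligand shares kept their sign; the Tgfb1 share differed by 10.4 to 15.1 percentage points with libraries left out. The cause of these changes was not tested. Depth limits Tgfb2 and Postn, with at most 61 and 47 counts in any library.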
